A study of Mus musculus with 12 samples.

Results

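The 8 genes described here are the receptors Thra, Thrb, Nr3c1 and Nr3c2, which bind thyroid hormone, glucocorticoids or mineralocorticoids, and Klf9, Fkbp5, Per1 and Tsc22d3, which these hormones are known to induce. They were chosen by name, with earlier results of these data known, so shares of all genes beside their counts give scale only. Their data are the peaks that the authors assigned to those symbols in 2 lists. These were 26 of 30534 Meis1 peaks and 35 of 22284 Hoxb13 peaks. All 8 genes were found in a RefSeq table of 21887 protein-coding genes of the same genome build, mm10.

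Ventricles of outbred CD-1 mice at postnatal day 15 were used for chromatin immunoprecipitation and sequencing with an antibody to Meis1, a homeobox factor of the TALE class, or to Hoxb13, a posterior Hox protein. There were 3 Meis1 precipitates, 3 Hoxb13 precipitates and 3 inputs for each, and the labels name no treatment or altered gene. By the protocol, sheared chromatin of each of 3 hearts was divided between the antibodies, but the titles number the Meis1 and Hoxb13 libraries separately and do not show which came from the same heart. Each list covers the 3 precipitates of its factor and has no value per library. Counts and strengths below therefore carry no error between hearts and no test, and the depth behind them is unknown. The tissue was whole ventricle, so the cell types that carried a peak cannot be told apart. Among marker genes, 5 of 5 of cardiomyocytes (Myh6, Tnnt2, Actc1, Ryr2 and Myl2), 3 of 3 of fibroblasts (Col1a1, Dcn and Pdgfra) and 3 of 3 of endothelium (Pecam1, Cdh5 and Kdr) had peaks of both factors, as did 23.9% of all genes. Of 3 leukocyte genes (Ptprc, Cd68 and Csf1r) 0 had a Meis1 peak and 1 a Hoxb13 peak, against 38.2% and 44.4% of all genes. Peak strength is a deposited column that the authors' files head with a number only. It was taken as the signal value from its place and its values, and its normalization is not stated. Each strength is given with its percentile in its own list, meaning the share of that list's peaks that were weaker. Strengths of the 2 lists are not compared, since no common scale is stated.

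Thyroid hormone receptors sit on DNA as partners of retinoid X receptors, holding corepressors without hormone and coactivators with it. Corticoid receptors wait in the cytoplasm with chaperones, among them the product of Fkbp5, and enter the nucleus when hormone binds. Both hormones rise around birth or in the first weeks of life in the mouse, when heart muscle cells switch from division to growth and to fat oxidation. Among the targets, Klf9 encodes a transcription factor, Per1 a clock protein and Tsc22d3 the anti-inflammatory leucine zipper protein GILZ, while Fkbp5 restrains the glucocorticoid receptor that induces it.

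Promoter sequences of RefSeq (GRCm38.p6, 250 bases before to 50 after a transcript start) were matched for 6 of the 8 genes, 10 windows in all, and peaks lay over 4 of them: 1 of Thrb, 2 of Per1 and 1 of Tsc22d3. The 3 with the widest cover are shown so that the letters under the peaks can be read, printed 5′ to 3′ in the direction of the gene, with matches to the motifs searched in capitals. The Thrb window is at chr14:17660710-17661009 (plus strand), that of Per1 at chr11:69098699-69098998 (plus strand) and that of Tsc22d3 at chrX:140542619-140542918 (minus strand).
Thrb: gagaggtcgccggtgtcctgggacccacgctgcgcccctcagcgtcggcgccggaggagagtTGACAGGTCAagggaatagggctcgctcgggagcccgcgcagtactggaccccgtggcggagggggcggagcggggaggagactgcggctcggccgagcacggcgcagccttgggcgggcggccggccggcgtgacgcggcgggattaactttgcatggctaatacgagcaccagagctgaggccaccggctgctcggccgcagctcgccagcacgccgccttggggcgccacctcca
Per1: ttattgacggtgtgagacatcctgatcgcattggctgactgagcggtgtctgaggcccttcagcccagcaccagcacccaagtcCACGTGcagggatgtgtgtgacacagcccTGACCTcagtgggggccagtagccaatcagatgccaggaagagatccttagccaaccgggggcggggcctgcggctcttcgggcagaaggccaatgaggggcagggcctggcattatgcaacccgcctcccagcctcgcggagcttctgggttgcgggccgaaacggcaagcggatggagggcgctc
Tsc22d3: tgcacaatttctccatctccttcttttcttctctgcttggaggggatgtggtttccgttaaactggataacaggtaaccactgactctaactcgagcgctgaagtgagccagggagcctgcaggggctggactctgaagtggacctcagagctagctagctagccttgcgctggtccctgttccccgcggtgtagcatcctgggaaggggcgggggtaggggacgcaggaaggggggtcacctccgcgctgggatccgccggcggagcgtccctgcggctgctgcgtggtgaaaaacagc

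In the Thrb window the Meis1 peak covered bases 1 to 188 and had its summit at base 47. The Meis core TGACAG stood at bases 63 to 68, inside that peak, and ran into the nuclear receptor core AGGTCA at bases 67 to 72. A Meis core that runs into AGGTCA in this way was present in 20 of 32851 windows (0.0609%), 4 of them among the 1369 windows under a Meis1 peak, a count made after the sequence was seen. In the Per1 window the E-box CACGTG (bases 85 to 90) and an AGGTCA on the other strand (bases 114 to 119, read as TGACCT) lay outside the Hoxb13 peak, which covered bases 163 to 300. The Tsc22d3 window lay under a pair of overlapping Hoxb13 peaks over bases 1 to 298 and held no match to any of the 7 motifs.

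On both strands of the 10 windows, TGACAG was found in 2, AGGTCA in 2 and CACGTG in 3, against 19.2%, 16.3% and 7.15% of all 32851 windows. The CACGTG matches, in windows of Thrb, Fkbp5 and Per1, all lay outside peaks of both factors. Both windows with TGACAG were of Thrb, and only the match in the printed window lay under a peak. The posterior Hox cores TTTATTG (4.60% of all windows) and CTCGTAAA (0.131%) had no match in the 10, nor did the full glucocorticoid response element (3 of all windows) or the direct repeat of AGGTCA spaced by 4, which contains AGGTCA and was found in 5 of all windows. Over all genes TGACAG was present in 43.5% of the windows under a Meis1 peak and in 18.1% of the other windows. TTTATTG was present in 2.36% of the 5847 windows under a Hoxb13 peak and in 5.08% of the others. GC content was 72.7% in the printed Thrb window, 63.3% in that of Per1 and 60.3% in that of Tsc22d3, with medians of 60.0% under Meis1 peaks, 64.0% under Hoxb13 peaks and 52.7% over all windows.

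Meis1 had a peak at 7 of the 8 genes, the exception being Thra, and Hoxb13 at all 8. Over all protein-coding genes 38.2% had a Meis1 peak, 44.4% a Hoxb13 peak and 23.9% both, as 7 of the 8 did. A Meis1 promoter peak, within 1 kb of a start in the authors' classes, was present at 3 of the 8 (Thrb, Nr3c1 and Klf9), against 8.16% of all genes. Hoxb13 promoter peaks were present at 6 of the 8 (Fkbp5 and Nr3c2 had none), against 30.7%. Promoter peaks of both factors were present at these 3 genes with a Meis1 promoter peak, against 4.7% of all genes. Among all 1786 genes with a Meis1 promoter peak, 1028 also had one of Hoxb13. Assignment to the nearest start gives long loci more room for peaks. Locus size for the 8 ran from 20.7 kb for Per1 (percentile 24.0 among all genes) to 806 kb for Nr3c2 (percentile 97.5), and its part in these counts was not tested.

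**Figure D1:**
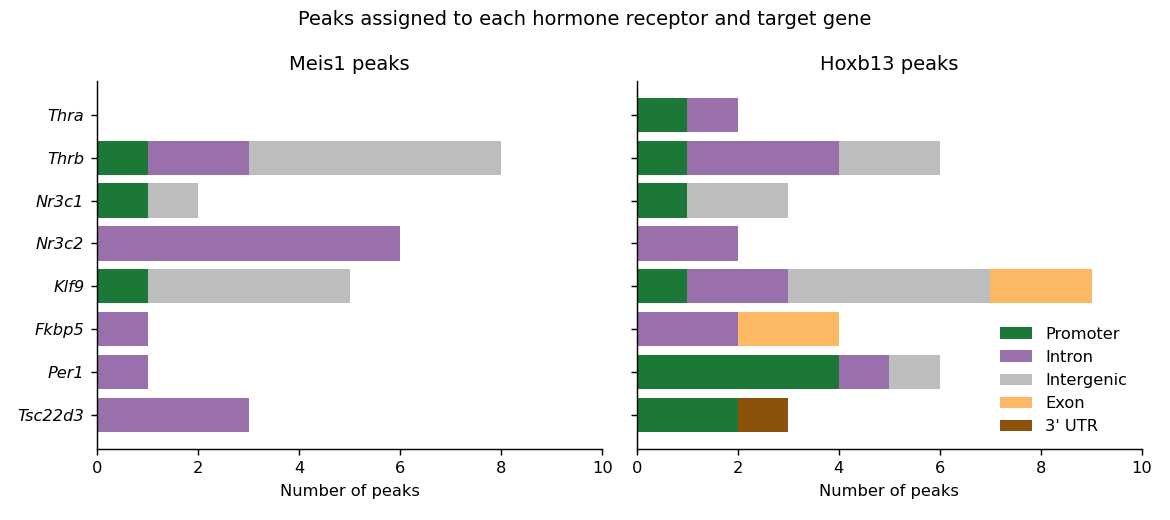
Number of peaks (x axis) assigned to each gene (y axis) for Meis1 (left) and Hoxb13 (right), coloured by the authors' annotation class. Nr3c2 and Tsc22d3 had only intron peaks of Meis1 (6 and 3), while Per1 had 4 promoter peaks of Hoxb13 and Klf9 the most Hoxb13 peaks (9).

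By the authors' starts, peaks of the receptors Thrb and Nr3c2 lay mostly far from gene starts, and those of the targets mostly near them. At the 4 receptors there were 16 Meis1 and 13 Hoxb13 peaks, with median distances of 84.5 kb and 38.5 kb to the nearest annotated start. Thrb and Nr3c2 hold most of these peaks, while the Hoxb13 peaks of Thra lay at 0 and 1.36 kb, and 2 of the 3 of Nr3c1 at 0.014 and 1.44 kb. The 4 targets had 10 Meis1 and 22 Hoxb13 peaks at medians of 6.77 kb and 3.82 kb, against 58.2 kb and 4.55 kb over the whole lists. The receptor loci measured 33.9 kb (Thra), 669 kb (Thrb), 253 kb (Nr3c1) and 806 kb (Nr3c2), and the target loci 20.7 to 127 kb. In the plot of positions, 6 of 10 Meis1 and 18 of 22 Hoxb13 peaks of the targets lay within 10 kb of a start. The receptors had 2 of 16 and 5 of 13 there, and the whole lists 19.8% and 58.9%. Klf9 held 4 of those 6 Meis1 peaks, and Tsc22d3 had 0. The peaks of Fkbp5 were near only by the authors' start, and lay at least 24.8 kb from the RefSeq start.

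**Figure D2:**
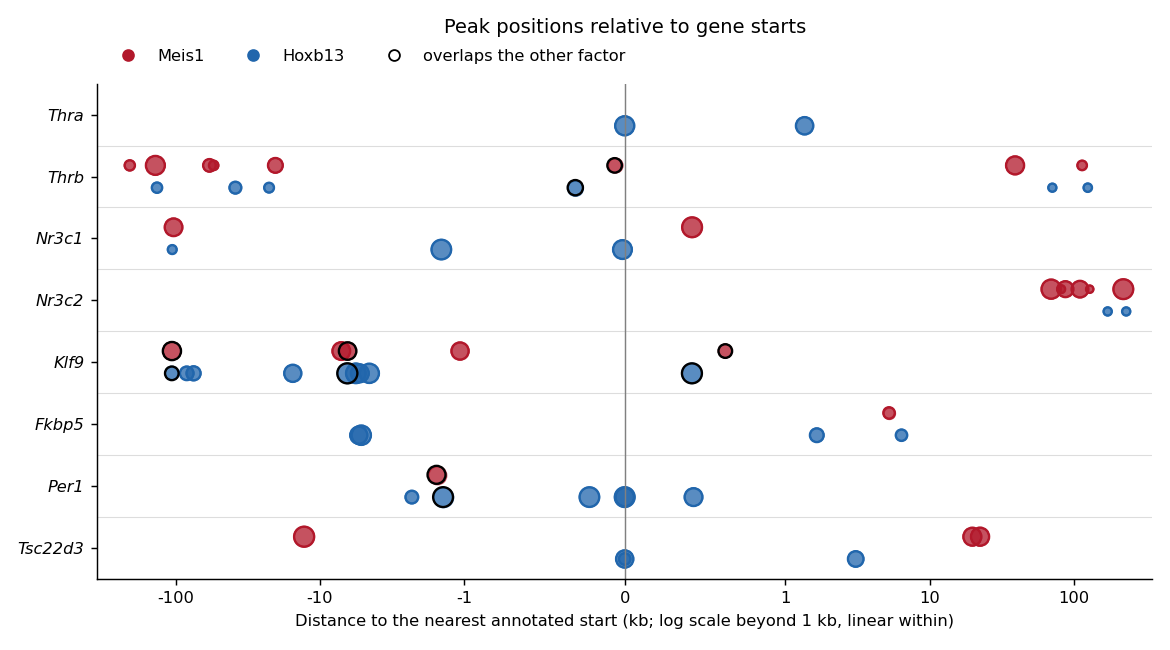
Signed distance of each peak to the nearest annotated start (x axis, kb, linear within 1 kb and log beyond; negative is upstream) for each gene (y axis), Meis1 in red above Hoxb13 in blue. Point area grows with the strength percentile, and black rings mark peaks that overlap a peak of the other factor, 5 for each factor, at Thrb, Klf9 and Per1.

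Thra encodes the thyroid hormone receptor that predominates in heart muscle. It had no Meis1 peak by the authors' assignment and 2 Hoxb13 peaks. The first lay over a start in the promoter class (chromosome 11, 98741729 to 98742124, strength 34.3, percentile 88.1), and the second in intron 2 of 3 of a transcript (98754654 to 98755049, strength 25.4, percentile 70.3). Thra therefore had Hoxb13 at its start without a Meis1 peak of its own, but the absence depends on the assignment. Inside the 3' end of its gene body a Meis1 peak (98768659 to 98768942, strength 40.4) was assigned to Nr1d1, a clock repressor gene that overlaps that end.

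Thrb, the other thyroid hormone receptor, had 8 Meis1 peaks, which 2.82% of all genes matched or exceeded, and 6 Hoxb13 peaks, which 2.05% did. Its locus was at percentile 96.6 by size. By gene body and 10 kb on either side the counts were 3 and 4, and with the stronger 50% of each list 2 and 1. Most were weak: Meis1 strengths ran from 16.0 to 35.2 with a median percentile of 38.1, and Hoxb13 strengths from 18.0 to 21.6 with a median percentile of 14.6. The strongest Meis1 peak was 138 kb upstream of the start (chromosome 14, 17522777 to 17523060, percentile 86.4), with a Hoxb13 summit 3.48 kb away (strength 18.5, percentile 16.2). In intron 7 of 9 stood another Meis1 peak (strength 25.6, percentile 77.1) whose nearest Hoxb13 summit was 85.7 kb away. At the promoter a Meis1 peak (17660614 to 17660897, strength 18.2, percentile 45.2) and a Hoxb13 peak (17660257 to 17660652, strength 21.6, percentile 51.3) overlapped by 39 bp with summits 301 bp apart, so the shared region rests on the edges of both peaks. This Meis1 peak is the one over the printed Thrb sequence.

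Nr3c2, the mineralocorticoid receptor gene, held its peaks in introns only, far from the start. There were 6 Meis1 peaks, 5 in intron 2 of 8 and 1 in intron 3, between 69.6 and 220 kb downstream of the start. Strength ranged from 15.6 to 81.1. The strongest (chromosome 8, 77122455 to 77122564, percentile 96.1) was 110 bp wide, and the next (76972062 to 76972345, strength 41.2) was at percentile 89.2. Hoxb13 had 2 peaks there, both near the bottom of its list (strength 18.0 each, percentiles 5.32 and 5.10), and the closest summits of the factors were 10.5 kb apart. A further pair of Meis1 peaks inside the gene body, of strength 226 (percentile 99.5) and 55.4 (percentile 93.0), had been assigned to 0610038B21Rik, the gene with the nearest start, so the nearest-gene count leaves out the strongest Meis1 site within Nr3c2.

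Nr3c1 encodes the glucocorticoid receptor. Its stronger Meis1 peak lay 420 bp downstream of a start in the promoter class (chromosome 18, 39489244 to 39489356, strength 85.2, percentile 96.4), again a narrow peak of 113 bp. Hoxb13 was next to it without overlap, at the start (39489790 to 39490185, strength 31.6, percentile 84.7, summit 683 bp from that of Meis1) and 1.44 kb upstream (39491218 to 39491613, strength 42.0, percentile 93.8). The factors were neighbours again far upstream, where a Meis1 peak at 103 kb (strength 23.7, percentile 73.4) and a weak Hoxb13 peak at 105 kb (strength 18.1, percentile 8.57) had summits 2.26 kb apart. The authors' start lies within the longer RefSeq gene model, which runs to 39519421, so the peaks around it are in the gene body by that annotation.

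Klf9 is a Krüppel-like factor gene that responds to both thyroid hormone and glucocorticoids. By the authors' assignment it had the most Hoxb13 peaks of the 8 genes and the most shared regions. By gene body and 10 kb on either side it had 6 Hoxb13 peaks, fewer than the 8 of Per1. By assignment it had 5 Meis1 peaks, which 5.67% of all genes matched or exceeded, and 9 Hoxb13 peaks, which 0.726% did (159 genes). Between 4.55 and 6.46 kb upstream of the start 4 Hoxb13 peaks stood in a run of 2.30 kb (chromosome 19, 23134375 to 23136677), at strengths of 71.6, 41.9, 27.0 and 35.9 and percentiles of 98.5, 93.7, 74.9 and 89.7. The middle pair overlapped each other, and the run crossed the annotated gene 2410080I02Rik. An enhancer upstream of Klf9 that answers to thyroid hormone and glucocorticoid together is known in mouse and frog, and whether these peaks coincide with it was not tested. The strongest Hoxb13 peak of the run, which was also the strongest assigned to any of the 8 genes, overlapped a Meis1 peak (23134514 to 23134797, strength 22.9, percentile 71.4) by 257 bp with summits 83 bp apart.

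A second Klf9 region with both factors lay just inside the gene, with a Meis1 peak of strength 17.6 (23141853 to 23142136, percentile 38.3) and a Hoxb13 peak of strength 56.3 (23141645 to 23142040, percentile 97.4), 152 bp between summits. The third was 106 kb upstream, inside another annotated gene, C330002G04Rik, and was given to Klf9 only by nearest start. There Meis1 had strength 26.6 (percentile 78.4) and Hoxb13 strength 20.1 (percentile 38.0), with summits 238 bp apart. Meis1 had other peaks 7.11 kb (strength 23.9) and 1.07 kb (strength 22.2) upstream. The remaining Hoxb13 peaks, 15.4, 75.0 and 83.6 kb upstream, had strengths of 20.1 to 25.0, and those at 75.0 and 83.6 kb also lay in C330002G04Rik. The promoter window at the Klf9 start itself had no peak of either factor over it. Inside the gene a further Meis1 peak, of strength 40.8, had been assigned to the microRNA gene Mir1192.

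Per1, a clock gene induced directly by glucocorticoids, had 1 Meis1 peak and 6 Hoxb13 peaks in the smallest locus of the 8. As many Hoxb13 peaks or more were found at 2.05% of all genes. Those of Per1 formed a single run of 7.39 kb. Its first peak ended 2.31 kb upstream of the first start, and its last ended just before a later start. Of these, 4 were in the promoter class, over or near 3 annotated starts, with strengths of 30.0, 27.0, 48.6 and 42.4 (percentiles 81.9, 74.9, 96.1 and 94.0). The upstream peak was the weakest (strength 19.5, percentile 31.6). In intron 1 of 17 the Meis1 peak (chromosome 11, 69097116 to 69097399, strength 25.2, percentile 76.4) overlapped a Hoxb13 peak (69097158 to 69097553, strength 48.5, percentile 96.1) by 242 bp, and summits were 98 bp apart.

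**Figure D3:**
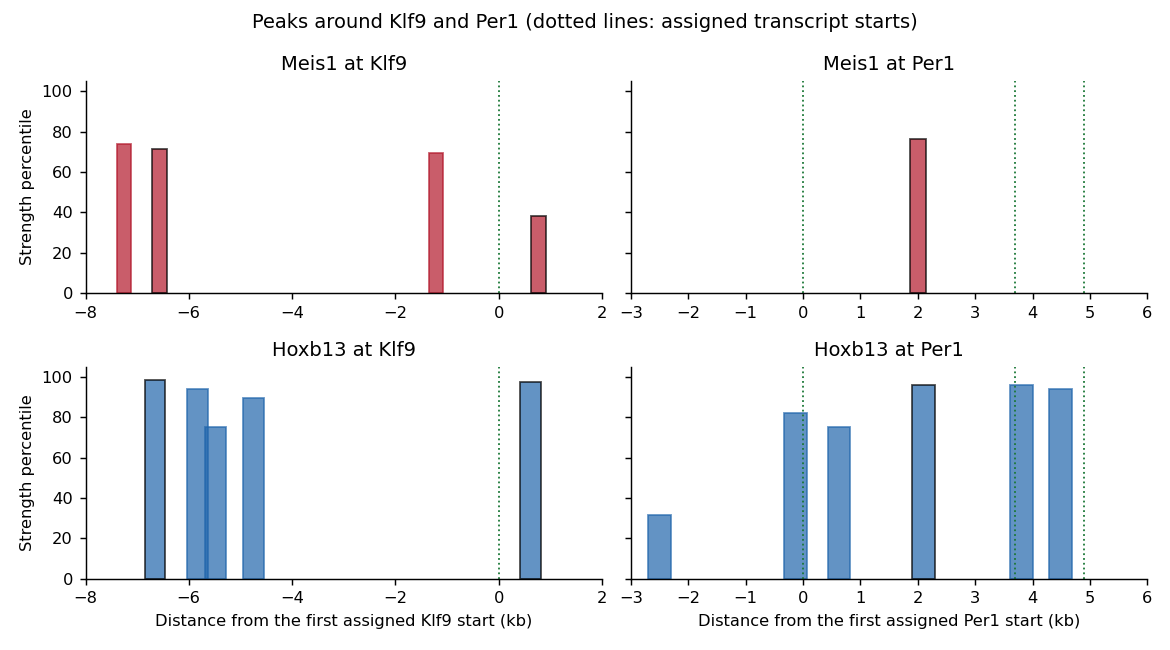
Peaks around Klf9 (left) and Per1 (right), Meis1 above and Hoxb13 below, as bars at the peak's summit and as wide as the peak (x axis, kb from the first assigned start) with the strength percentile as height; black outlines mark peaks shared by the factors and dotted lines assigned starts, and more distant Klf9 peaks are left out. At Klf9 the 4 Hoxb13 peaks upstream stand together and Meis1 meets the first of them; at Per1 Hoxb13 peaks line the gene's starts and Meis1 meets only that in intron 1.

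Fkbp5, the chaperone gene, had peaks that all lay outside its RefSeq gene body, the Meis1 peak among the weaker of its list. The Meis1 peak was in intron 1 of 13 of the longer transcript used by the authors (chromosome 17, 28511998 to 28512281, strength 16.6, percentile 23.1). Hoxb13 had peaks in the same intron at strengths of 19.0 and 20.2 (percentiles 22.6 and 39.2), the first with its summit 1.21 kb from that of Meis1. The others overlapped each other over exons of transcripts in E230001N04Rik, 5.17 and 5.38 kb upstream of the authors' start, at strengths of 37.4 and 25.1 (percentiles 90.9 and 69.0). By the RefSeq start, the Meis1 peak was 26.0 kb and the 4 Hoxb13 peaks were 24.8 to 37.0 kb upstream. Inside the RefSeq body a Meis1 peak (28420205 to 28420488, strength 44.0, percentile 90.1) and a weak Hoxb13 peak (strength 17.9, percentile 1.32) had been assigned to Tulp1.

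Tsc22d3 had the strongest Meis1 peak assigned to any of the 8 genes, below the peak of strength 226 that lies inside Nr3c2 but was assigned elsewhere, and no peaks of the factors overlapped at it. The Tsc22d3 peak (chromosome X, 140556048 to 140556228, strength 145, percentile 98.6, rank 435) was 181 bp wide and lay in intron 2 of 3 of an annotated transcript, 7.57 kb from the nearest RefSeq start. The other Meis1 peaks stood in the same intron at strengths of 26.0 and 25.2 (percentiles 77.8 and 76.4). Hoxb13 was instead near the 3' end of the gene, over annotated starts there with the overlapping pair of the printed sequence (strengths 25.3 and 19.0, percentiles 69.7 and 24.0), and at the 3' UTR (strength 22.0, percentile 54.2). Summits of the factors were at least 13.1 kb apart at Tsc22d3.

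By strength, peaks at the 8 genes were spread over both lists. The median percentile, each within its own list, was 70.4 for the 26 Meis1 peaks and 68.3 for the 35 Hoxb13 peaks. In the strongest 10% of their lists were 3 of 26 Meis1 peaks (those of Nr3c1, Nr3c2 and Tsc22d3) and 8 of 35 Hoxb13 peaks (22.9%), of which Klf9 and Per1 held 3 each. With peaks pooled, the median percentile for Hoxb13 was 16.2 at the receptors and 72.3 at the targets, and for Meis1 52.2 and 75.2. Gene by gene the classes were not separated. Hoxb13 medians were 79.2 (Thra), 14.6 (Thrb), 84.7 (Nr3c1), 5.21 (Nr3c2), 74.9 (Klf9), 54.1 (Fkbp5), 88.0 (Per1) and 54.2 (Tsc22d3). Meis1 medians were 38.1 (Thrb), 84.9 (Nr3c1), 60.4 (Nr3c2), 71.4 (Klf9), 23.1 (Fkbp5), 76.4 (Per1) and 77.8 (Tsc22d3). Thrb and Nr3c2 account for 8 of the 13 Hoxb13 peaks of the receptors, and in each of these genes the Hoxb13 peaks stayed at or under percentile 51.3. The strong Meis1 peaks of Nr3c1, Nr3c2 and Tsc22d3 were also the only Meis1 peaks of the 8 genes without the list's usual width of 284 bp, and over the whole list the 1526 such peaks had a median percentile of 97.5.

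**Figure D4:**
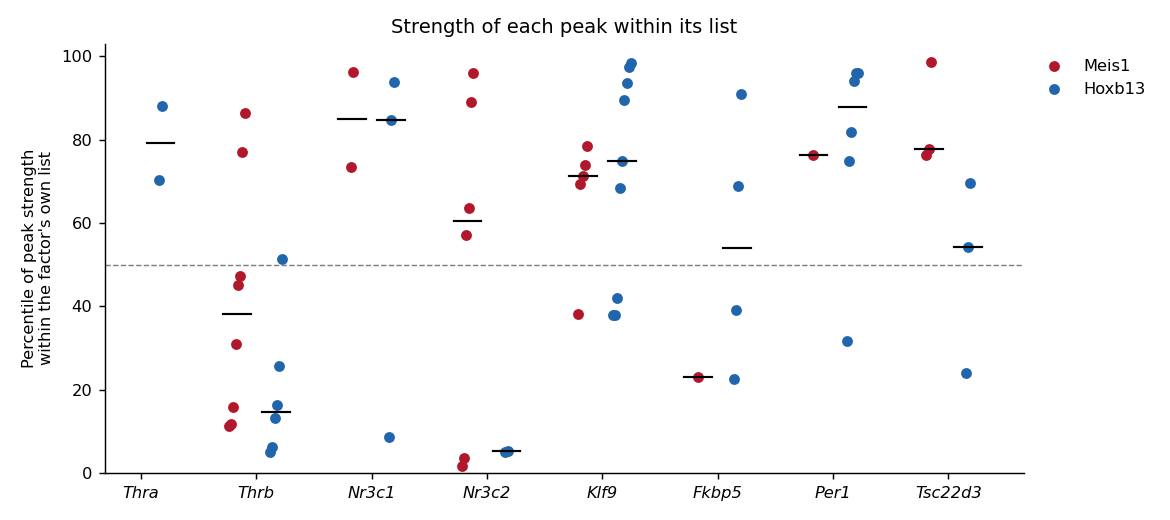
Percentile of peak strength within the factor's own list (y axis) for every peak of each gene (x axis), Meis1 in red left of Hoxb13 in blue, with black bars at the median and a dashed line at 50. Klf9, Per1, Nr3c1 and Fkbp5 reach above percentile 90 for Hoxb13, whereas Nr3c2 has its Hoxb13 peaks near 5 and 2 Meis1 peaks above 89.

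Whether the factors met at these genes was described by overlap of at least 1 bp. Klf9 had 3 such regions, Per1 1 and Thrb 1, so 3 of the 8 genes had a shared region, against 5.89% of all protein-coding genes. Of the Meis1 peaks 5 of 26 (19.2%) were shared, with 5.54% over the whole list, and of the Hoxb13 peaks 5 of 35 (14.3%), with 7.93%. Only the Klf9 site 6.4 kb upstream and the Per1 intron site had summits within 100 bp of each other. A wider count took in every peak with a summit of the other factor within 3 kb, the overlapping peaks among them. It held 11 of 26 Meis1 peaks (42.3%, against 12.7% over the list) and 17 of 35 Hoxb13 peaks (48.6%, against 20.4%). Klf9 and Per1 held most of these Hoxb13 peaks, so the peaks are not separate meetings of the factors. Those of Per1 all lay beside its only Meis1 peak, and an overlapping pair at Klf9 was counted peak by peak. Thra, Nr3c2 and Tsc22d3 had no such peak of either factor. Promoter peaks made up 11.5% of the Meis1 peaks and 28.6% of the Hoxb13 peaks at the 8 genes, against 6.73% and 40.3% of the lists.

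The wider pathways were described with a pair of gene lists, also chosen with earlier results of these data known. One held 26 thyroid hormone genes (deiodinases, transporters, retinoid X receptors and cofactors). The other held 32 corticoid genes (steroid-converting enzymes, receptor chaperones and known targets). Among the thyroid hormone genes 12 had a Meis1 peak, 15 a Hoxb13 peak and 11 both, with promoter peaks at 4 and 9. Among the corticoid genes 19 had a Meis1 peak, 25 a Hoxb13 peak and 17 both, with promoter peaks at 5 and 20. For comparison, 38.2%, 44.4% and 23.9% of all genes had a Meis1 peak, a Hoxb13 peak and both, and 8.16% and 30.7% had a Meis1 and a Hoxb13 promoter peak. The median number of peaks per gene was 2.5 of Meis1 and 3.5 of Hoxb13 for the 8 genes, 0 and 1 for the thyroid hormone list, 1 and 2 for the corticoid list, and 0 and 0 over all genes.

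Shared regions were found at 6 of the 32 corticoid and 4 of the 26 thyroid hormone genes, against 5.89% of all genes. The highest-placed by the weaker of its percentiles was in Zbtb16, a zinc finger gene induced by glucocorticoids, 98.1 kb into the gene. It had Meis1 strength 47.1 (percentile 91.0) and Hoxb13 strength 28.7 (percentile 79.2). At the promoter of Dusp1, a phosphatase of MAP kinases, the strengths were 20.4 for Meis1 (percentile 61.9) and 25.7 for Hoxb13 (percentile 71.1). Klf15, a regulator of heart metabolism, had a shared region 41.5 kb from its start (86.8 and 22.9, percentiles 96.5 and 58.7). That of Trim63, a ubiquitin ligase of muscle, was at its promoter (74.5 and 19.2, percentiles 95.5 and 27.8). That of Ddit4, an inhibitor of mTOR, was 18.3 kb upstream (16.4 and 20.2, percentiles 18.9 and 39.8). Those of the thyroid hormone list included a region in the coactivator gene Ncoa3 (24.9 and 20.0, percentiles 75.8 and 36.7). Another was near the corepressor subunit gene Tbl1xr1 (30.1 and 19.1, percentiles 82.4 and 25.5). At the promoter of Rxrg, a partner of the thyroid hormone receptors, both peaks were weak (15.8 and 18.9, percentiles 5.33 and 22.1).

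**Figure D5:**
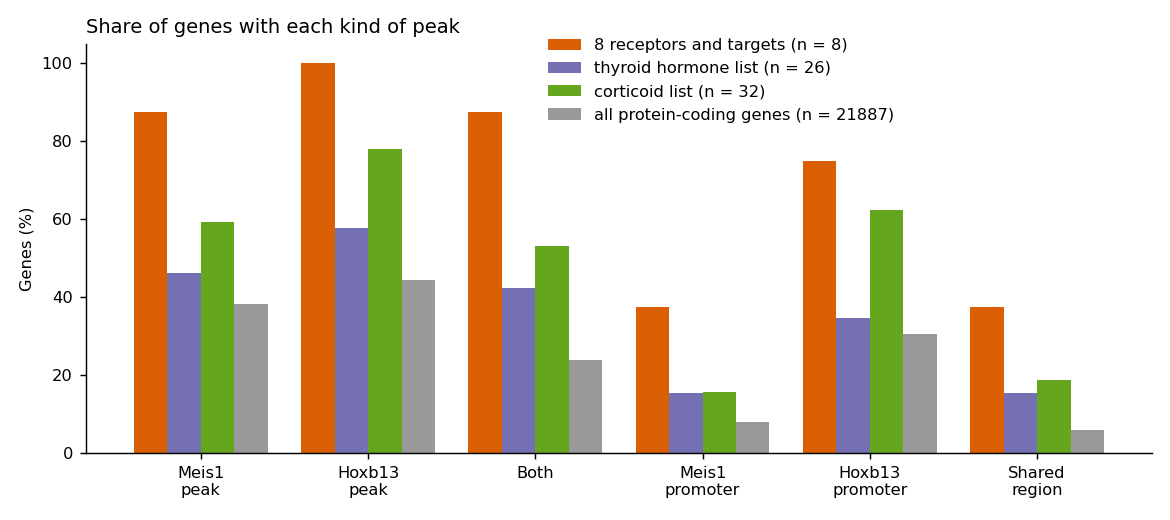
Share of genes in percent (y axis) with each kind of peak (x axis) for the 8 receptors and targets, the thyroid hormone list, the corticoid list and all protein-coding genes. The 8 genes stand above the other sets in each kind, with peaks of both factors at 7 of the 8 and at 23.9% of all genes. The 8 genes and both lists were chosen with earlier results of these data known.

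Some genes of the lists had the same arrangement as the 8, judged by 4 yes or no answers (a promoter peak and another peak of each factor). Thrb, Nr3c1 and Klf9 had all 4, as did Dusp1 and Fbxo32 among the 58 list genes, and 304 of all protein-coding genes (1.39%). Per1 and Tsc22d3 had all but a Meis1 promoter peak, an arrangement shared with 11 list genes, the first by name being Bcl6, Cebpd and Ddit4, and found at 5.77% of all genes. Nr3c2 and Fkbp5 had peaks of both factors outside promoters only, like Errfi1, Glul, Ncoa3 and 2 more list genes and 7.74% of all genes. Thra had Hoxb13 at the promoter and elsewhere and no Meis1, like Angptl4 and Ptges3 and 3.74% of all genes.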

How the data were processed

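The members and gene lists were chosen with earlier results of these data known. Among the tools that the submitters' processing notes name, with no role given, are Bowtie2 2.2.3, deepTools 1.6, Picard and ChIPseeker, and the build is mm10. Which program called the peaks, at what threshold, and how libraries were joined is not given in the sources used here. Each deposited list has, per the file headers, a position, an annotation class and the gene with the nearest transcript start. The deposited column in the usual place of a signal value, headed by a number only, served as strength, and a further deposited score was not used. A deposited offset gave the summit, which in most peaks is the middle.

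Peaks were taken by the authors' symbol. Percentiles were computed within each list and overlaps on 1-based intervals, and background shares were taken over 21887 RefSeq protein-coding genes matched by gene number. A gene's locus was its RefSeq body with 0.5 of the intergenic space on each side. Overlap and motif searches (Python 3.11.15, pandas 2.3.3) were tested on simulated data. From each list up to 5 genes with a shared region were named, ordered by the weaker percentile, and up to 3 genes with the same arrangement, by name, and 1 list gene that met these rules is not reported here. No test was run, since there is no value per library. Inputs entered no comparison. The alternatives were other thresholds on strength, distance and overlap, lists of equal length, and assignment by gene body.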

Additional observations from a re-analysis of the deposited data

How the results depend on the processing

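Alternatives changed the counts mostly by their construction, since they drop peaks. Of 44 totals and counts 21 stayed within 1.5 times their value, and 23 did not. With the stronger 50% of each list the 8 genes kept 16 Meis1 and 20 Hoxb13 peaks, and 1 had a Meis1 promoter peak (6.13% of all genes). In that setting 2 regions were shared, and 8.00% of all Hoxb13 peaks kept overlapped a Meis1 peak. Of the 26 thyroid hormone genes 9 had Hoxb13 and 4 both (29.7% and 13.1% of all genes). With peaks within 10 kb of a start there were 8 Meis1 and 23 Hoxb13 peaks, 7 thyroid hormone genes with Meis1 and 4 with both, and 10 corticoid genes with Meis1 and 9 with both (19.5% and 10.3% of all genes). A limit to the strongest 10% of each list was added with the values known. It left 3 Meis1 and 8 Hoxb13 peaks at 3 and 4 of the 8 genes (9.05% and 8.32% of all genes), and 1 gene had both (1.55%). Promoter peaks were at 1 and 2 genes (1.44% and 6.58%). There 0 regions were shared, and 2.83% of all Hoxb13 peaks kept overlapped a Meis1 peak. Counting overlapping peaks once, also added later, gave 26 Meis1 and 32 Hoxb13 peaks. Shared regions numbered 2 with summits within 100 bp, 2 with a reciprocal overlap of 50% (Klf9 and Per1 in each case) and 8 with summits within 1 kb, where Nr3c1 joined. Over the whole list 2.64%, 3.35% and 14.1% of Hoxb13 peaks met these rules. Counted by peak, 7 of the 35 Hoxb13 peaks at the 8 genes met the 1 kb rule. By gene body and 10 kb on either side, the totals were 24 Meis1 and 29 Hoxb13 peaks, and Thra gained 2 Meis1 peaks assigned to Nr1d1. Meis1 counts fell from 8 to 3 at Thrb and from 2 to 1 at Nr3c1, and rose from 6 to 8 at Nr3c2. Hoxb13 counts fell from 6 to 4 at Thrb, 3 to 2 at Nr3c1, 9 to 6 at Klf9 and 4 to 1 at Fkbp5. They rose from 2 to 3 at Thra and from 6 to 8 at Per1. Of 96 counts for single genes 63 stayed within 1.5 times and 33 did not.

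No paired analysis was possible because each list joins the 3 libraries of a factor and gives no value per library. For the same reason, leaving out each replicate in turn was not run. Depth is unknown, so a gene without a listed peak is one where none was listed, not one shown to be unbound.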

Other observations

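Peaks that lay in or within 10 kb of the 8 genes but had been assigned to a neighbour were listed separately, 6 of Meis1 and 5 of Hoxb13. The strongest was a Meis1 peak inside Nr3c2 (chromosome 8, 77223275 to 77223491, strength 226). Inside Klf9 a Meis1 peak (chromosome 19, 23149450 to 23149733, strength 40.8, percentile 89.0) was assigned to the microRNA gene Mir1192, and it was stronger than any Meis1 peak assigned to Klf9 itself. Beyond the end of Thra, a Meis1 peak in Nr1d1 had strength 60.6 (percentile 93.9), and a Hoxb13 peak inside the 3' end of Thra had strength 22.2. Downstream of Per1, Hoxb13 peaks of strength 32.0 and 25.9 were assigned to Hes7.

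Among the list genes, Dio2, Tbl1xr1 and Anxa1 had the highest Meis1 counts, and were named after their values were seen. For scale, 2.82% of all genes had 8 or more Meis1 peaks and 0.726% had 9 or more of Hoxb13. The shares with as many Meis1 peaks as Dio2, Anxa1 or Tbl1xr1 were not computed. A Meis1 peak was present at 38.2% of all genes, a Hoxb13 peak at 44.4% and both at 23.9%. The part of locus size in the counts of these genes was not tested. Dio2, which converts thyroxine into the active hormone, had 12 Meis1 peaks and 0 of Hoxb13, while Dio1 and Dio3 had 0 of both. Anxa1, an anti-inflammatory gene induced by glucocorticoids, had 17 Meis1 peaks and 0 of Hoxb13. Tbl1xr1 had 19 and 8. In the other direction Dusp1 had 4 Meis1 and 12 Hoxb13 peaks, the most Hoxb13 peaks of any gene in the lists. The receptor chaperone genes Hsp90ab1, Fkbp4 and Ptges3 had Hoxb13 promoter peaks (3, 1 and 1) and 0 Meis1 peaks. Stip1 had 1 Hoxb13 promoter peak and 1 Meis1 peak, and Hsp90aa1 had 1 Meis1 peak and 0 of Hoxb13. Of all genes 30.7% had a Hoxb13 promoter peak.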
